A study of Homo sapiens with 6 samples.

Results

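The genes of 7 solute carrier (SLC) families that carry amino acids, SLC1, SLC3, SLC6, SLC7, SLC36, SLC38 and SLC43, were examined in RPMI8226, a multiple myeloma cell line of human origin. Members were taken by name: every gene of the deposited count table whose Ensembl identifier maps to a numbered symbol of these families on a primary chromosome, which gave 58 of the 63677 genes in the table. The rule itself used no measured value, but it was set with earlier results of these data known. Of these, 27 passed a filter on low counts and were tested, among 16926 genes tested in all. The names follow sequence families, so SLC6 also brings in carriers of dopamine, noradrenaline, serotonin, taurine and creatine, and SLC43 brings in SLC43A3, a carrier of purine bases. SLC6A14 matched by name, but its identifier lies on a patch of the assembly, and it was left out.

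The study exposed RPMI8226 cells for 6 hr to 100 nM GST-PTR1 or to 100 nM GST and asked which transcripts respond. In GST-PTR1 a domain of the extracellular matrix protein HAPLN1, named PTR1, is joined to glutathione-S-transferase (GST), made in bacteria, and GST is the fusion partner alone. All 6 samples came from this 1 line, labelled as wild type. There were 3 biological replicates of each treatment and no untreated or shorter exposure was analysed here, so each comparison is of GST-PTR1 with GST at a single time.

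Amino acid carriers work in a few arrangements. Some, such as the system A carriers of the SLC38 family, use the sodium gradient to load the cell, and others, such as the SLC1A4 and SLC1A5 proteins, exchange an outer amino acid for an inner one. The SLC3A2 protein is the heavy chain that brings a set of SLC7 light chains to the plasma membrane, where SLC7A5 takes up leucine, SLC7A6 and SLC7A7 exchange arginine and SLC7A11 takes up cystine. Plasma cells secrete antibody in bulk and depend on a large supply of amino acids, and lysosomal members such as SLC38A9 report that supply to the kinase complex mTORC1.

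The GST libraries, named here by the number in the column names (3, 4 and 5), had totals of 15202503, 23453473 and 20077280 counts. Libraries 2, 4 and 5 of GST-PTR1 had 22874133, 44688737 and 28837431. The 58 genes took between 0.242% and 0.351% of a library's counts. CPM, a gene's counts scaled to a common library size, are normalised below with TMM factors, which edgeR estimates from the bulk of the genes, and fold changes are on the log2 scale from the same fit. The plasma cell markers were high as a sum in every library. Among the tested ones, GST levels ran from 5.57 ± 0.452 normalised CPM for SLAMF7 to 2168 ± 153 for JCHAIN (SD, n = 3). On library totals, the summed CPM of 11 of them was 4379 to 5348 with GST and 3828 to 4414 with GST-PTR1, with JCHAIN the largest term, and CD27 did not exceed the detection limit of 3 counts. Of the 10 tested, PRDM1, SLAMF7 and IRF4 rose and SDC1, TNFRSF17 and XBP1 fell (60% called, against 20.6% of all genes tested). These markers thus moved with the treatment in both directions. CR2, a gene of B cells, had 291 ± 24.4 normalised CPM with GST and 257 ± 35.9 with GST-PTR1 (SD, n = 3) and was not called. Also on library totals, myeloid markers summed to 0.946 to 1.71 and 0.867 to 1.10, and stromal markers to 0.263 to 0.597 and 0.358 to 0.393. T cell markers summed to 6.18 to 6.51 with GST and 2.86 to 3.63 with GST-PTR1. Of the 6 T cell genes, CD3D, CD3E, CD3G and CD2 were at or under 3 counts in every library, so the sum came from CD8A, which fell from 5.07 ± 0.282 to 3.12 ± 0.287 normalised CPM (SD, n = 3), and from CD4, which had 18, 13 and 15 counts with GST and 6, 10 and 6 with GST-PTR1 and passed the filter through its GST libraries alone. The part of these markers in the transporter results was not tested.

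Transcripts for glutamine and leucine uptake led the set. Levels between genes were compared as RPKM, the count divided by exon length and by the library total. SLC38A5, a system N glutamine carrier, had the highest RPKM with GST, at 139.6, 131 and 121 in the 3 libraries (mean 130 ± 9.50 SD, n = 3). SLC7A5, the leucine exchanger LAT1, followed at 86.0 ± 18.0 RPKM, SLC1A5, the glutamine exchanger ASCT2, at 59.9 ± 7.75, SLC43A3 at 57.2 ± 3.10, and the heavy chain SLC3A2 at 45.8 ± 1.40. The RPKM of SLC43A3 is a lower limit, since 36.8% of the exon bases it is divided by lie where reads were not counted, so its place in the order may be higher. SLC1A4 (ASCT1) was at 33.9 ± 6.25, SLC38A1 (SNAT1) at 26.8 ± 3.53 and SLC38A2 (SNAT2) at 22.8 ± 2.45. Among neighbours in this order, the GST libraries overlapped for SLC1A5 and SLC43A3, for SLC1A4 and SLC38A1 and for SLC38A1 and SLC38A2, and not for the other pairs. At the other end, the dopamine transporter SLC6A3 had 0.151 ± 0.0712 RPKM.

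**Figure D1:**
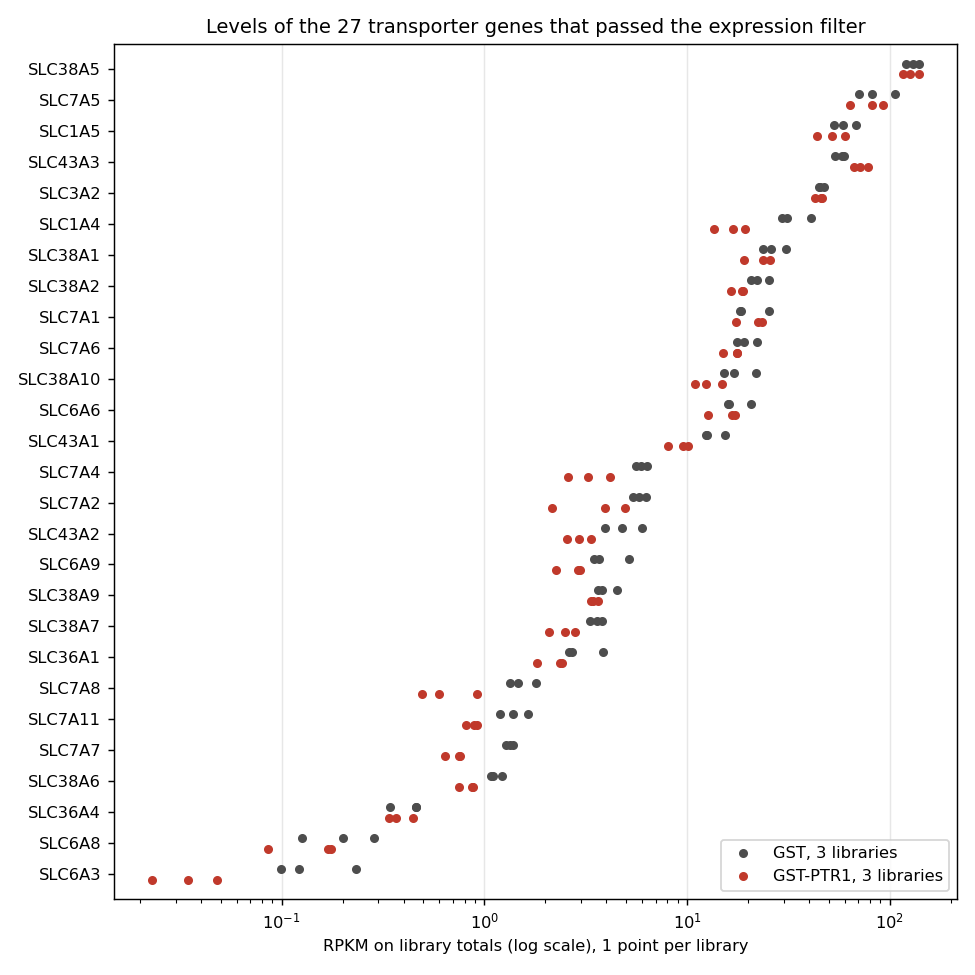
RPKM on library totals (log axis) of the 27 tested genes, 1 point for each of the 3 GST and 3 GST-PTR1 libraries, sorted by the GST mean. SLC38A5 is at the top in both treatments, and the points of the treatments lie apart for SLC1A4, SLC7A7 and SLC7A8.

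Between treatments, SLC43A3 rose and 7 genes fell at an adjusted p under 0.05 (edgeR, Benjamini-Hochberg over all genes tested). The 7 were SLC1A4, SLC6A3, SLC7A4, SLC7A7, SLC7A8, SLC7A11 and SLC43A2. The 8 called genes were 29.6% of the 27 tested. Of all genes tested 20.6% were called, 9.15% higher and 11.4% lower, against 3.70% higher and 25.9% lower among the transporters. The median log2 fold change was -0.27 over the transporters and 0.01 over all genes tested, and 70.4% of the transporters had a negative value against 49.3% of all genes. The normalised CPM did not overlap between treatments for 13 of the 27, which is 48.1% against 40.4% of all genes tested. When the libraries were scaled by their totals alone, the median of all genes moved to -0.19, and 12 transporters instead of 7 were called lower, with SLC43A3 again called higher. SLC6A3 passed the filter on low counts through its GST libraries alone, where it is higher, and so had to differ. Without it, 6 of 26 were lower (23.1%), the median log2 fold change was -0.26 and 12 of 26 did not overlap (46.2%). The 7 went down to 3 without GST-PTR1 library 5 and to 4 without GST library 3. The libraries hold bulk RNA, so fewer cells with a transcript and less of it per cell cannot be told apart.

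**Figure D2:**
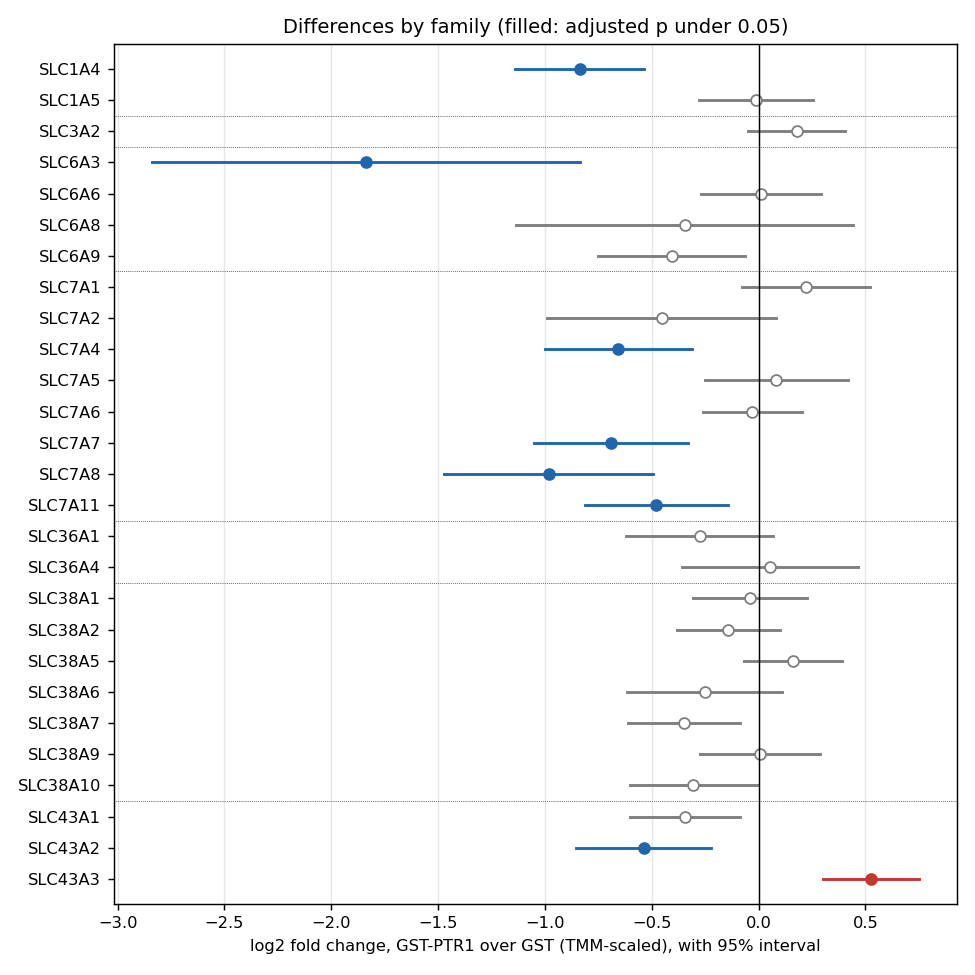
Log2 fold change of GST-PTR1 over GST (TMM-scaled) with its 95% interval for each of the 27 tested genes, ordered by family, with filled points for an adjusted p under 0.05. SLC43A3 is the sole filled point above 0, and the widest interval is that of SLC6A3.

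The decrease did not fall on the most abundant carriers alike. Of the 12 genes with the highest GST RPKM, a split chosen after their values were seen, SLC43A3 was higher and SLC1A4 lower, and the median log2 fold change was -0.00. Of the other 15 tested genes, SLC6A3 included, 6 were lower and none higher, with a median of -0.41. Over all genes tested the same split by level also moved the values: at or above the RPKM of the 12th transporter 4.16% were lower and 11.5% higher with a median of 0.17, and below it down to the 27th transporter 13.6% were lower and 7.68% higher with a median of -0.06.

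In the SLC1 family, the neutral amino acid exchanger SLC1A4 fell and its close relative SLC1A5 did not pass the test. SLC1A4 (ENSG00000115902, GRCh37 chromosome 2, 65215611 to 65250999, plus strand), which carries alanine, serine and cysteine, had 260, 203 and 195 normalised CPM in GST libraries 3, 4 and 5. It had 138, 107 and 123 in GST-PTR1 libraries 2, 4 and 5. Every GST-PTR1 library was below every GST library, with a log2 fold change of -0.84 ± 0.14 (SE, adjusted p = 0.0016, edgeR), or 0.559 of the GST level. SLC1A5 had 207, 183 and 167 normalised CPM with GST and 206, 165 and 183 with GST-PTR1. The treatments overlapped throughout, and its log2 fold change of -0.01 had a 95% interval from -0.28 to 0.25.

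The balance between these exchangers differed between treatments without overlap of the libraries, a measure that no scaling of the libraries affects. It rests on the same counts as the call of SLC1A4. SLC1A4 made up 36.05% ± 1.46 (SD, n = 3) of the summed SLC1 RPKM with GST and 24.2% ± 0.337 with GST-PTR1. The ratio of SLC1A5 to SLC1A4 was 1.66, 1.88 and 1.79 with GST and 3.12, 3.20 and 3.09 with GST-PTR1. With 3 libraries against 3, an exact permutation test of such a value cannot go below p = 0.1. In rank of RPKM among the members, SLC1A4 went from position 6 to position 10. The glutamate transporters of the family were nearly silent, with SLC1A1, SLC1A6 and SLC1A7 at 0 counts in every library and SLC1A2 and SLC1A3 at no more than 6 and 3 counts.

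Both exchangers carry the letters TGATGNAA near their start, a core that the stress response factor ATF4 and its C/EBP partners are known to bind, and their stretches are shown because SLC1A4 passed the test of the treatments and SLC1A5, with the same letters, did not. Promoter windows, 250 bases before to 50 after the start, came from RefSeq on GRCh38.p14 and were matched for 21 of the 27 tested genes. The core was searched on both strands, and 5 of these 21 genes held it (23.8%), as did 4.46% of the 27305 genes with a window. Those 27305 genes were not limited to tested ones. Of the 43 members with a window, tested or not, 6 held it, the untested SLC1A3 among them. By window the shares were 12.5% of 40 for the tested members and 3.62% of 35116 for all genes. The capitals mark the core, read 5′ to 3′ on the gene's own strand, so that a match on the other strand appears as its reverse complement, and the stretches lie at chr2:64989382-64989409 (plus) for SLC1A4 and chr19:46784894-46784921 (minus) for SLC1A5.
SLC1A4: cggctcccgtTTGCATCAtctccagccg
SLC1A5: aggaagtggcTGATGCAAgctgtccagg
The other tested genes with the core were SLC3A2 (chr11:62881726-62881748, plus), SLC38A1 (chr12:46266503-46266530, minus) and SLC7A1 (chr13:29595664-29595691, minus), none of which passed the test of the treatments.
SLC3A2: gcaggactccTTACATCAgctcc
SLC38A1: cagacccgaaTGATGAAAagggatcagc
SLC7A1: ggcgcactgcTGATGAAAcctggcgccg
Of the 5 tested genes with the core, SLC1A4 fell and the log2 fold changes of the other four lay between -0.04 and 0.22. The NF-kB consensus was searched in the same way and was in none of the 40 windows of the tested genes, against 5.91% of all windows. SLC6A3, SLC6A6, SLC7A2, SLC7A4, SLC7A11 and SLC43A3 had no window in the table used. A match or its lack describes these letters in these windows alone.

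The heavy chain SLC3A2 (4F2hc, CD98) and its main light chains did not pass the test, while the 3 scarcest of the 5 light chains tested fell. Of all genes tested 11.4% were called lower, and 13.6% of those with an RPKM below the 12th transporter and down to the 27th. SLC3A2 had 217, 233 and 222 normalised CPM with GST and 231, 273 and 257 with GST-PTR1. Its log2 fold change was 0.18 with a 95% interval from -0.05 to 0.41 (adjusted p = 0.245, edgeR), and the GST libraries overlapped the lowest GST-PTR1 library. The other heavy chain, SLC3A1 of kidney, had 0 counts in every library.

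Of the light chains, SLC7A5 had 458, 364 and 319 normalised CPM with GST and 453, 344 and 412 with GST-PTR1, with a log2 fold change of 0.08 (95% interval -0.25 to 0.42). SLC7A6, which exchanges arginine for neutral amino acids, had 139 ± 13.2 and 136 ± 6.09 normalised CPM (SD, n = 3), a log2 fold change of -0.03. Neither differed beyond the spread of the libraries. Reads that map to several places were not counted, and SLC7A5 has processed copies. Of these, SLC7A5P1 had 8 to 60 counts and did not pass the test, and SLC7A5P2 had 0, so the SLC7A5 value may miss reads.

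SLC7A8 (LAT2), an exchanger of neutral amino acids, had 9.72, 7.49 and 8.24 normalised CPM in GST libraries 3, 4 and 5 and 3.01, 4.03 and 5.75 in GST-PTR1 libraries 2, 4 and 5. This was the largest decrease of a light chain, to 0.506 of the GST level (log2 fold change -0.98 ± 0.22 SE, adjusted p = 0.0103, edgeR), and the treatments did not overlap although the GST-PTR1 libraries differed among themselves. SLC7A7 (y+LAT1), the other arginine exchanger, had 6.30, 6.65 and 6.25 with GST and 3.36, 4.36 and 4.10 with GST-PTR1. Its GST libraries were close together and all above the GST-PTR1 libraries (log2 fold change -0.69 ± 0.16 SE, adjusted p = 0.0131). Without GST library 4 its adjusted p was 0.0569.

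SLC7A11 (xCT), which brings in cystine for glutathione in exchange for glutamate, had 14.5, 10.9 and 12.7 normalised CPM with GST and 8.03, 10.1 and 9.04 with GST-PTR1. The treatments did not overlap, but GST library 4 and GST-PTR1 library 4 lay close to each other. The log2 fold change was -0.48 ± 0.15 (SE, adjusted p = 0.0466, edgeR), and the call was the least stable of the 8. It was lost without GST library 3 (adjusted p = 0.127), GST library 5 (0.0928), GST-PTR1 library 2 (0.112) or GST-PTR1 library 5 (0.121), and held in 6 of 15 alternatives.

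By share of the light chain pool, the abundant members overlapped between treatments. SLC7A5 was 78.0% ± 1.62 of the summed light chain RPKM with GST and 80.5% ± 1.99 with GST-PTR1, and SLC7A6 was 18.0% ± 1.22 and 17.2% ± 1.45. The share of SLC7A7 went from 1.24% ± 0.198 to 0.743% ± 0.178, that of SLC7A8 from 1.40% ± 0.155 to 0.690% ± 0.232 and that of SLC7A11 from 1.30% ± 0.182 to 0.907% ± 0.209. The shares of these 3 did not overlap between treatments, though for SLC7A11 the lowest GST share of 1.14% lay next to the highest GST-PTR1 share of 1.13%. SLC3A2 was 0.425 ± 0.0744 of the summed light chains with GST and 0.466 ± 0.0926 with GST-PTR1 by RPKM, within the spread of the libraries. The other light chains SLC7A9, SLC7A10 and SLC7A13 had 0 counts in every library.

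The cationic branch of SLC7, which works without a heavy chain, held 1 call in 3 tested genes, where 20.6% of all genes tested were called. SLC7A4, an orphan of this branch, had 14.1, 12.9 and 13.8 normalised CPM with GST and 10.5, 7.15 and 8.42 with GST-PTR1. All GST-PTR1 libraries were lower (log2 fold change -0.66 ± 0.16 SE, adjusted p = 0.0131, edgeR), and without GST-PTR1 library 5 the adjusted p was 0.053. SLC7A1, the main arginine carrier CAT-1, had 148 ± 25.8 and 173 ± 18.1 (SD, n = 3) and did not pass (log2 fold change 0.22, adjusted p = 0.266).

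SLC7A2 (CAT-2), another arginine carrier, had 42.0, 40.4 and 47.1 normalised CPM with GST and 17.5, 35.2 and 41.4 with GST-PTR1. GST-PTR1 library 2 alone was far below the rest, and the log2 fold change of -0.45 ± 0.24 (SE) did not pass (adjusted p = 0.205, edgeR). Leaving out libraries 1 at a time, its log2 fold change lay between -0.70 and -0.17. SLC7A3 had 0 counts in every library and SLC7A14 at most 1.

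SLC43 was the family with an opposed pair of calls. SLC43A3 (ENSG00000134802, GRCh37 chromosome 11, 57174427 to 57195053, minus strand) had 180, 205 and 203 normalised CPM with GST and 294, 277 and 276 with GST-PTR1. The lowest GST-PTR1 library lay above the highest GST library, and the mean was 1.44-fold higher (log2 fold change 0.53 ± 0.10 SE, adjusted p = 0.00445, edgeR). The call held in all 15 alternatives, with a log2 fold change between 0.33 and 0.56. In the annotation used, 36.8% of its exon bases are shared with ENSG00000254979 on the same strand, where reads were not counted. That gene had 2 to 16 counts of its own.

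SLC43A2 (LAT4), a carrier of leucine and other large neutral amino acids that needs no sodium, fell. It had 58.0, 47.5 and 39.9 normalised CPM with GST and 36.5, 30.7 and 33.0 with GST-PTR1, with no overlap (log2 fold change -0.54 ± 0.14 SE, adjusted p = 0.0223, edgeR). GST library 5 was the closest to the GST-PTR1 libraries. The call was lost without GST library 3 (adjusted p = 0.0541), GST library 4 (0.0658), GST-PTR1 library 4 (0.0646) or GST-PTR1 library 5 (0.0734).

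SLC43A1 (LAT3), with the same substrates, had 49.8, 41.1 and 42.1 normalised CPM with GST and 36.9, 32.1 and 35.8 with GST-PTR1. Here too the libraries did not overlap, but the log2 fold change of -0.34 ± 0.12 (SE) missed the threshold (adjusted p = 0.0592, edgeR). SLC43A3 and SLC43A1 lie 56954 bases apart on the same strand of chromosome 11 with values of opposite sign. Within the family, SLC43A3 was 75.7% ± 3.66 of the summed RPKM with GST and 85.5% ± 0.682 with GST-PTR1, SLC43A1 17.8% ± 2.40 and 10.97% ± 0.543, and SLC43A2 6.49% ± 1.37 and 3.49% ± 0.176. None of these shares overlapped between treatments.

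**Figure D3:**
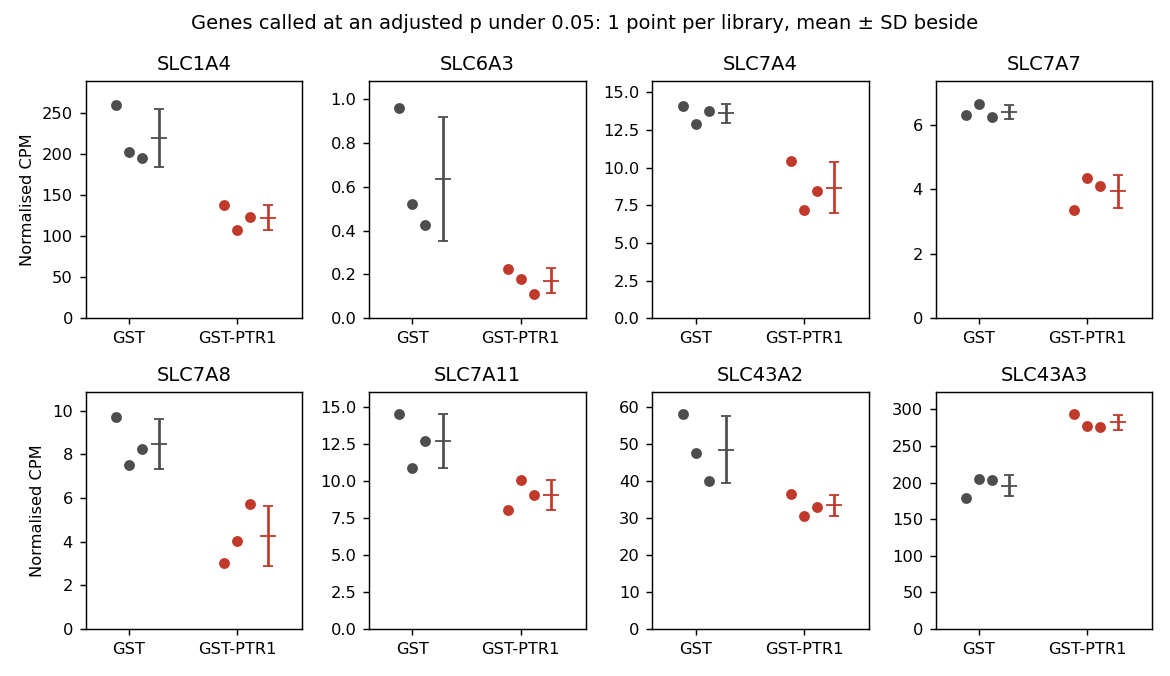
Normalised CPM of the 8 genes called at an adjusted p under 0.05, 1 point per library with the mean ± SD of 3 libraries beside it, each axis starting at 0. In each panel the GST and GST-PTR1 libraries do not overlap, and SLC43A3 alone is higher with GST-PTR1.

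**Figure D4:**
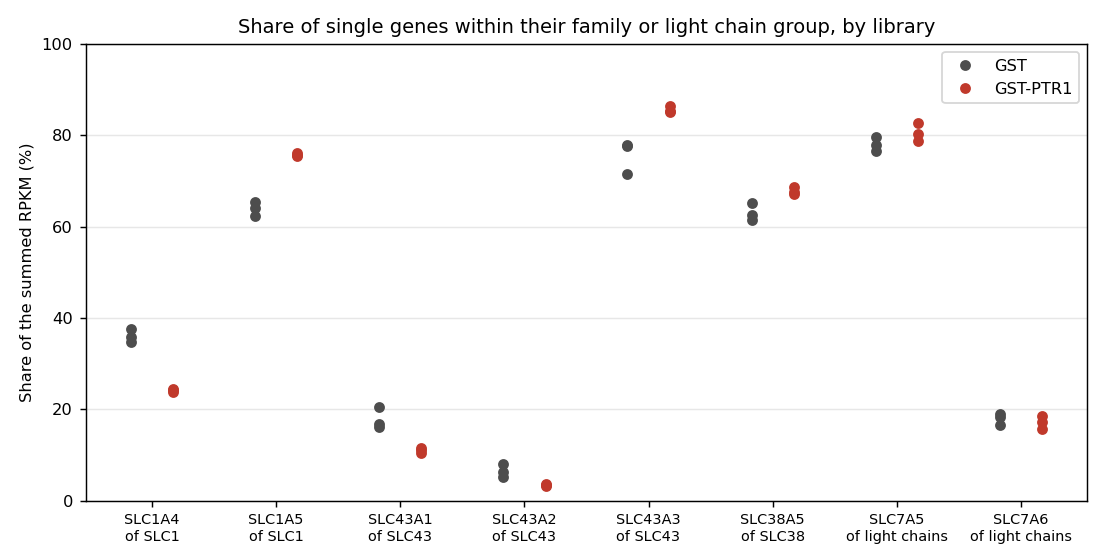
Share of the summed RPKM of a family, or of the SLC3A2 light chains, taken by single genes (%), 1 point per library. SLC1A4, SLC43A1 and SLC43A2 take a smaller share in every GST-PTR1 library than in any GST library, whereas SLC7A5 and SLC7A6 overlap between treatments.

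The SLC38 family, sodium-coupled carriers of neutral amino acids, held no call in 7 tested genes, where 20.6% of all genes tested were called. SLC38A5 had 511, 493 and 460 normalised CPM with GST and 574, 530 and 534 with GST-PTR1, which did not overlap, but its log2 fold change of 0.16 ± 0.10 (SE) did not pass (adjusted p = 0.296, edgeR) and was -0.04 with scaling to library totals. The system A carriers SLC38A1 and SLC38A2 had log2 fold changes of -0.04 and -0.14, with overlapping libraries. SLC38A7, which exports glutamine and asparagine from lysosomes, had 24.4, 23.7 and 21.96 with GST and 20.1, 16.6 and 18.5 with GST-PTR1, with no overlap, but it missed the threshold (log2 fold change -0.35, adjusted p = 0.0614).

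SLC38A9, the lysosomal arginine sensor, had 32.8 ± 4.298 and 33.0 ± 2.99 normalised CPM (SD, n = 3), a log2 fold change of 0.01. Of the less studied members, SLC38A10 had a log2 fold change of -0.31 (adjusted p = 0.131, edgeR) with overlapping libraries, and SLC38A6 had -0.25 (adjusted p = 0.296), with libraries that did not overlap but lay close together, at 5.16, 5.93 and 5.25 against 4.62, 5.05 and 4.06 normalised CPM. It shares 1.52% of its exon bases with ENSG00000258892. SLC38A5 took 63.1% ± 1.91 of the family's RPKM with GST and 67.8% ± 0.783 with GST-PTR1. SLC38A3, SLC38A4, SLC38A8 and SLC38A11 had at most 2 counts in a library.

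Among the 4 tested SLC6 genes, the dopamine transporter SLC6A3 was called lower from very few counts. It had 16, 13 and 9 counts in GST libraries 3, 4 and 5 and 5, 7 and 3 in GST-PTR1 libraries 2, 4 and 5, or 0.960, 0.521 and 0.426 normalised CPM against 0.224, 0.177 and 0.110. Every GST-PTR1 library held fewer of them than any GST library (log2 fold change -1.84 ± 0.45 SE, adjusted p = 0.0162, edgeR). Its GST-PTR1 libraries were all under the filter, so it was tested because of its GST level, and it could not be tested with at least 10 counts in every library or after thinning. The call was lost without GST library 3 (adjusted p = 0.0556) or GST-PTR1 library 5 (0.0641). No other member was called with a change of 2-fold.

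SLC6A9 (GlyT1), a glycine transporter, had 24.3, 17.8 and 17.1 normalised CPM with GST and 15.4, 13.1 and 16.1 with GST-PTR1. The libraries did not overlap, GST library 3 stood highest, and the log2 fold change of -0.41 ± 0.16 (SE) did not pass (adjusted p = 0.0894, edgeR). The taurine transporter SLC6A6 had 136 ± 18.3 and 137 ± 16.2 normalised CPM (SD, n = 3), a log2 fold change of 0.01. The creatine transporter SLC6A8 had 14 to 27 counts and a log2 fold change of -0.35 ± 0.36 (SE), and a difference of this size was not detectable at these counts. Its copy SLC6A10P had at most 1 count, and reads shared with such copies were not counted.

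In the proton-coupled SLC36 family, SLC36A1 (PAT1), which releases small amino acids from lysosomes, had 19.8 ± 4.02 and 16.4 ± 1.72 normalised CPM (SD, n = 3; log2 fold change -0.27, adjusted p = 0.231, edgeR). SLC36A4 had 3.81 ± 0.593 and 3.94 ± 0.392, and neither gene differed beyond its spread. SLC36A2 had at most 1 count and SLC36A3 had 0.

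The silent members include carriers known from nerve, kidney and gut. Of the 31 untested genes, 17 had 0 counts in every library, 10 had a highest count of 1 to 3, and SLC1A2, SLC6A5, SLC6A12 and SLC6A19 reached 6, 5, 10 and 6. In these libraries 3 counts are worth 0.0671 to 0.197 CPM on library totals, so lower levels could not be seen at this depth. The untested SLC6 genes include the noradrenaline and serotonin transporters SLC6A2 and SLC6A4, at no more than 1 and 3 counts.

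Summed RPKM changed direction with the scaling for all members together and for SLC3, SLC7 and SLC38, but not for the other families. On library totals the summed RPKM of all members was 590 ± 57.2 with GST and 533 ± 56.8 with GST-PTR1, and on TMM-scaled totals it was 550.2 ± 41.4 and 570 ± 32.5, overlapping on both. SLC1 was lower on both scales, without overlap on library totals and with overlap on the other, at 93.8 ± 13.9 and 68.6 ± 11.1 on library totals and 87.4 ± 11.02 and 73.1 ± 8.37 on TMM-scaled totals. SLC43 was higher on both without overlap, at 75.6 ± 1.03 and 84.3 ± 7.30 on library totals and 70.6 ± 1.83 and 90.1 ± 3.63 on TMM-scaled totals. On library totals the closest libraries were at 76.7 (GST library 4) and 77.3 (GST-PTR1 library 4). Most of the SLC43 sum was SLC43A3, the carrier of purine bases, at 75.7% with GST and 85.5% with GST-PTR1. The means of SLC43A1 and SLC43A2 were lower with GST-PTR1 on both scales. SLC3 was 45.8 ± 1.40 and 45.1 ± 1.90 on library totals and 42.7 ± 1.58 and 48.4 ± 4.04 on TMM-scaled totals. SLC7 and SLC38 also changed sign between the scales. SLC6 had lower means on both, at 22.2 and 18.5 on library totals and 20.7 and 19.7 on TMM-scaled totals, with overlap on both. SLC36 was lower too, at 3.47 and 2.58 on library totals, without overlap, and 3.24 and 2.75 on TMM-scaled totals, with overlap. Carriers of the system L type, SLC7A5, SLC7A8, SLC43A1 and SLC43A2 together, summed to 98.7 ± 17.2 and 98.6 ± 12.5 on TMM-scaled totals, most of it SLC7A5.

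Amino acid carriers of other families were read from a list written from general knowledge, with earlier results of these data known. Of its 18 tested genes, 5 fell and none rose (27.8% lower, against 11.4% of all genes, median log2 fold change -0.16). SFXN3, a mitochondrial serine carrier, had 12.9 ± 2.95 normalised CPM with GST and 4.47 ± 0.987 with GST-PTR1 (SD, n = 3; log2 fold change -1.54 ± 0.21 SE, adjusted p = 0.000438, edgeR). SLC17A5, a lysosomal exporter of sialic acid and acidic amino acids, fell by 0.66 on the log2 scale (adjusted p = 0.00145) and SLC66A1, a lysosomal exporter of basic amino acids, fell by 1.02 (adjusted p = 0.00324). The others that fell were SLC16A10, a carrier of aromatic amino acids, and SLC22A5, a carnitine carrier. None of the mitochondrial SLC25 carriers on the list was called.

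**Figure D5:**
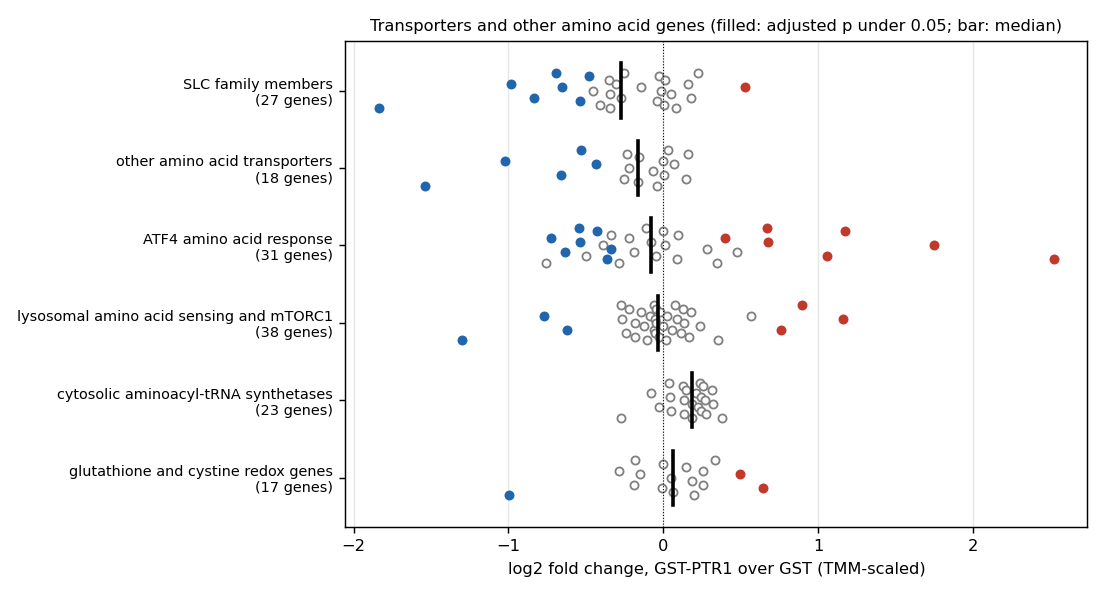
Log2 fold change (TMM-scaled) of the 27 tested transporter genes and of the tested genes of 5 lists around amino acid supply, 1 point per gene, filled for an adjusted p under 0.05, with a bar at each median. The called points of both transporter groups lie below 0 except SLC43A3, and those of the ATF4 list lie on both sides.

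The listed genes of the ATF4 response to amino acid shortage moved in both directions. The list also holds ATF4 itself and the kinases EIF2AK3 and EIF2AK4, which act upstream of ATF4 and are among those that fell. Of 31 tested genes of this list, 7 rose and 7 fell (45.2% called, against 20.6% of all genes), with a median log2 fold change of -0.08. The 7 lower genes went down to 2 without GST-PTR1 library 4 or 5, to 3 without GST library 4 and to 4 without GST library 5. Those that rose include the transcription factors ATF3 (2.52 ± 0.13 SE, adjusted p = 2.54e-07, edgeR), JDP2 (1.17 ± 0.12, adjusted p = 4.46e-05) and CEBPB (1.75 ± 0.18, adjusted p = 5.56e-05), which other pathways are known to induce too. Those that fell include TRIB3, a pseudokinase (-0.72 ± 0.11, adjusted p = 0.000759), EIF2AK4, the kinase that senses uncharged tRNA (-0.64 ± 0.12, adjusted p = 0.0047), and GPT2, a mitochondrial transaminase (-0.54 ± 0.13, adjusted p = 0.0151). The others called were PPP1R15A, ATF5, MTHFD2 and CEBPG, which rose, and PSAT1, CBS, EIF2AK3 and PHGDH, which fell. The part of ATF4 in the changes of either direction was not tested.

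None of the 23 cytosolic aminoacyl-tRNA synthetase genes and their scaffold partners was called by edgeR, although 7 had an unadjusted p under 0.05, as did 5963 of all 16926 genes. Their median log2 fold change was 0.19 and 20 of 23 were positive. Of the 3439 genes at or above the RPKM of the 12th transporter, 2567 were positive and the median was 0.17. DESeq2 called 1 of the synthetase genes higher. Of 38 tested genes of lysosomal amino acid sensing and mTORC1, 3 rose and 3 fell (15.8% called, under the 20.6% of all genes, median -0.04). FNIP2, a partner of folliculin, rose (1.16 ± 0.17 SE, adjusted p = 0.00062), as did TFE3, a factor that drives lysosomal genes (0.76 ± 0.12, adjusted p = 0.00157), and SESN3, a sestrin (0.90 ± 0.24, adjusted p = 0.0213). DEPTOR, an inhibitory partner of mTOR that myeloma cells express strongly, fell from 85.4 ± 21.0 to 34.8 ± 6.01 normalised CPM (SD, n = 3; -1.30 ± 0.18, adjusted p = 0.000458). SESN1, another sestrin (-0.77 ± 0.12, adjusted p = 0.00143), and the GTPase RRAGD (-0.62 ± 0.17, adjusted p = 0.0223) fell too.

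For SLC7A11, genes of glutathione and redox control, not all of which use cystine, were listed as well. Of 17 tested glutathione and cystine redox genes, 2 rose and 1 fell (17.6% called, under the 20.6% of all genes, median log2 fold change 0.06), and when libraries were left out in turn, 1 rose in every fit except that without GST-PTR1 library 2. NFE2L2, the factor known to drive SLC7A11, rose from 80.8 ± 2.26 to 126 ± 2.99 normalised CPM (SD, n = 3; log2 fold change 0.65 ± 0.09 SE, adjusted p = 0.00062, edgeR), and CHAC2, which breaks glutathione down, rose by 0.50 (adjusted p = 0.047). HMOX1, haem oxygenase and a known target of the same factor, fell by 1.00 (adjusted p = 0.00564). SLC7A11 itself was lower.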

How the data were processed

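RPMI8226 cells were treated with GST or GST-PTR1 (100 nM, 6 hr) in 3 biological replicates each. Per the file header, the authors counted reads per gene with featureCounts version 1.5.0-p1 on the Ensembl release 75 annotation of GRCh37, on the reverse strand, without reads that hit more than 1 place or gene. The submitters' processing notes name Subread, and its version is not given in the sources used here. The deposited values are raw counts with exon lengths. Column names give the treatment and a number other than the samples' replicate numbers, so libraries were not paired. No libraries of a treatment agreed within sampling noise (smallest chi-square per gene 7.66).

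From the counts, treatments were compared by edgeR 4.0.16 in R 4.3.3 (TMM, filterByExpr, glmQLFit, glmQLFTest, Benjamini-Hochberg over 16926 genes, threshold 0.05). P-values measure the spread between these samples. RPKM used library totals unless stated. All members are named, and of each list up to 3 called genes per direction with the smallest adjusted p. Called genes beyond these, and CR2, were named after their values were seen. The members and lists were chosen with earlier results of these data known. Where SLC43A3 and another gene share exons, counts are incomplete. In simulated counts, 200 well-counted genes were changed 2-fold, in both directions alike, with the same spread for all genes. Of the changed genes 97.0% were recovered, and 4.09% of calls were false (GST-PTR1 against GST, 16929 to 16971 genes tested). In the data 3486 genes were called, and recovery at the counts and fold changes of the transporters was not tested. Alternatives were DESeq2 size factors or library totals, DESeq2 1.42.0, limma 3.58.1 (voom), other count filters, thinning to the smallest total, leaving out each library, and, added after seeing the data, fits of the 4 libraries whose numbers both treatments share. Python 3.11.15, pandas 2.3.3 and matplotlib 3.10.9 were used. Counting error alone is covered by the limit of 3 counts. The B cell marker list is not reported here.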

Additional observations from a re-analysis of the deposited data

How the results depend on the processing

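SLC1A4, SLC7A8 and SLC43A3 were called in all 15 alternatives, and SLC43A3 was the sole transporter called higher in each. Of 403 values of single transporters under an alternative, 347 kept their direction and their side of the threshold, 18 lost a call, 6 gained one and 32 changed sign. With 3 libraries a treatment, the number of lower transporters depended on the processing. It was 12 on library totals, 4 after thinning and between 3 (without GST-PTR1 library 5) and 6 when libraries were left out, with 4 without GST library 3. A fit of the 4 libraries whose numbers are shared gave 6 lower transporters with the replicate block and 6 without it. Deviations correlated at r = 0.25 for number 4 and -0.03 for number 5, so the numbers were not shown to pair the samples. The block planned over all 6 libraries was not run, since no source ties the column numbers to the replicates. The cause of these changes was not tested.

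On library totals the lists gave 8 lower genes for other amino acid transporters, 13 for the ATF4 response, 6 for lysosomal sensing and mTORC1, 1 for the synthetases and 5 for the redox genes, with 1 redox gene higher. Leaving out libraries gave 2 (without GST-PTR1 library 4 or 5) to 7 lower ATF4 genes, with 3 without GST library 4 and 4 without GST library 5, and 1 to 2 higher redox genes (1 without any library except GST-PTR1 library 2). It gave 0 to 1 higher synthetases (1 without GST library 5). The filter of 1 count in any library gave 5 higher sensing genes and 3 higher synthetases, and DESeq2 gave 1 higher synthetase. Without the block the 4 libraries gave 5 higher sensing genes, and with the replicate block 1 higher redox gene. The filter of 10 counts and thinning each gave 1 higher redox gene. The summed RPKM of SLC3 was 42.7 with GST and 48.4 with GST-PTR1 on TMM-scaled totals, and that of SLC43 with GST was 70.6.

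Changes of sign were confined to transporters without a call. On library totals the log2 fold change was -0.022 for SLC3A2, -0.18 for SLC6A6, -0.11 for SLC7A5, -0.14 for SLC36A4, -0.035 for SLC38A5 and -0.19 for SLC38A9. SLC1A5 was 0.015 with DESeq2 and 0.019 with the filter of 1 count, and SLC7A6 was 0.0020 with that filter. SLC36A4 was -0.0011 and SLC38A9 -0.026 when thinned. In the 4 libraries SLC7A6 was 0.041 unblocked and 0.040 with the replicate block, and SLC38A9 was -0.00038 unblocked. With single libraries left out the log2 fold change ran from -0.095 to 0.079 for SLC1A5, -0.057 to 0.12 for SLC6A6, -0.027 to 0.24 for SLC7A5, -0.088 to 0.045 for SLC7A6, -0.077 to 0.14 for SLC36A4, -0.12 to 0.053 for SLC38A1 and -0.058 to 0.12 for SLC38A9.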
